A study of Mus musculus with 4 samples.

Results

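Neutrophils are themselves a source of CC chemokines, and 5 of these secreted proteins were followed here from the blood of tumor-bearing mice into the tumor. The 5 genes were Ccl3, Ccl4, Ccl2, Ccl6 and Ccl9, chosen by name among the 12 CC ligand genes and the 18894 genes that the count tables list. They were set up as a contrast between ligands known to be induced on activation (Ccl3, Ccl4 and also Ccl2) and ligands known to be made by myeloid cells at rest (Ccl6 and Ccl9). Both groups of cells came from the same 3 untreated FVB mice, an inbred strain, which had been injected with Py7160, a mouse mammary tumor cell line. The sources used here give neither the sex nor the age of the mice. Tumors of about 1 cm were taken 2 to 3 weeks later and digested with enzymes, while red cells were lysed in the blood. Neutrophils were enriched through Ly6G, tagged with 1 hashtag antibody per mouse (an antibody that carries a DNA barcode), pooled by tissue and sorted as CD11b+ Ly6G+, so that each tissue was run as 1 Drop-seq library, in which single cells are caught in droplets with barcoded beads. Tissue, library and the way the cells were released therefore cannot be told apart in any comparison that follows.

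CC chemokines are small secreted proteins with adjacent cysteines near their start that draw leukocytes through G protein-coupled receptors. Ccl3 and Ccl4 (MIP-1 alpha and MIP-1 beta) draw monocytes and lymphocytes, and Ccl3 binds Ccr1. Ccl2 (MCP-1) draws monocytes through Ccr2. Ccl6 and Ccl9 are rodent ligands of Ccr1 that are found in resting myeloid cells, whereas transcription of Ccl3, Ccl4 and Ccl2 is switched on by Toll-like receptors and cytokines through NF-kB, AP-1 and C/EBP factors, and their short-lived messages are taken down by RNA decay proteins such as Zfp36.

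A barcode was taken as a cell when it held at least 200 detected genes and at most 15% mitochondrial counts, and was given to a mouse when at least 70% of its hashtag counts were of a single hashtag. This left 841 tumor cells (106, 564 and 171 for mice 1 to 3) with 572844 UMIs, counts of unique RNA molecules, and 1375 blood cells (511, 456 and 408) with 1147068 UMIs. The median per cell was 570 to 586 UMIs in the tumor mice and 647.5 to 671 in the blood mice, and no cell barcode was shared between the libraries. Tumor mouse 2 held most of the tumor cells, and their assignment, and so the values by mouse, depended on the method. HTODemux, another way to call hashtags, gave no call to 230 of its 564 cells and called 56 doublets. It gave no call to 0 cells of tumor mice 1 and 3, and assigned 134, 243 and 213 tumor cells in all to mice 1, 2 and 3. HTODemux called the other 278 cells of mouse 2 single cells but assigned 243 to mouse 2 in all, so it gave some of the 278 to another mouse. With its calls the log2 fold changes were 11.09 for Ccl3, 10.47 for Ccl4 and -0.87 for Ccl6 (edgeR adjusted p = 7.64e-17, 2.5e-17 and 1.05e-05). A neutrophil list (12 of 12 markers detected) summed to 72547 to 86693 CPM (UMIs scaled to a total of 1000000) in the tumor mice and 181661 to 209915 CPM in the blood mice. A monocyte and macrophage list (15 genes, none at 0 in tumor) summed to 467, 4837 and 4766 CPM in tumor mice 1, 2 and 3 and to 275 to 466 CPM in blood, where C1qa, C1qb, C1qc, Mrc1 and Ms4a7 were among those at 0. The T or NK list stood at 8.56 to 49.3 CPM in tumor against 106 to 260 in blood, and the erythroid list at 0 in tumor against 13960 to 22154 in blood.

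The genes lie on mouse chromosome 11 (GRCm38, GENCODE annotation). Ccl9 (ENSMUSG00000019122.8, bases 83572919 to 83578636), Ccl6 (ENSMUSG00000018927.3, 83587882 to 83593087) and Ccl3 (ENSMUSG00000000982.5, 83647844 to 83649355) are read from the minus strand, and Ccl4 (ENSMUSG00000018930.3, 83662584 to 83664683) from the plus strand. The starts of Ccl3 and Ccl4 are 13229 bp apart, those of Ccl9 and Ccl6 14451 bp, and those of Ccl6 and Ccl3 56268 bp. Ccl2 (ENSMUSG00000035385.5, 82035571 to 82037453, plus strand) starts 1543065 bp before Ccl9. Ccl6 is overlapped on the other strand by E230016K23Rik, which held 1 UMI in tumor and 5 in blood.

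Promoters of 3 of the 5 ligands were matched in RefSeq (build GRCm38.p6), and the 250 bases before each start are shown because these neighbours went in different directions between the tissues. Capitals mark matches, on either strand, to 4 motifs: the NF-kB motif (GGG, any 5 bases, CC), the C/EBP motif TTNNGNAA, the AP-1 motif TGANTCA and the ETS motif GGAAGT, which PU.1 (Spi1) and its relatives bind.
Ccl3, chr11:83649379-83649628, minus strand: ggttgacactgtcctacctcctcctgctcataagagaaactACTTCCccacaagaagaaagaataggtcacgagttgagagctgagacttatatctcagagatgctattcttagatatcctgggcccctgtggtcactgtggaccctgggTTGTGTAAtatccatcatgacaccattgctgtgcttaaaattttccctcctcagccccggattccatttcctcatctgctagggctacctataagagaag
Ccl6, chr11:83593088-83593337, minus strand: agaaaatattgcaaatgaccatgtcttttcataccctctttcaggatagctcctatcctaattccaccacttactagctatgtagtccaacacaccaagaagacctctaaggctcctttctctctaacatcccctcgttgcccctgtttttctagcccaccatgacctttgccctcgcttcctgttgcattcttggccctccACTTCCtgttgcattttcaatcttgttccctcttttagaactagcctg
Ccl9, chr11:83578637-83578886, minus strand: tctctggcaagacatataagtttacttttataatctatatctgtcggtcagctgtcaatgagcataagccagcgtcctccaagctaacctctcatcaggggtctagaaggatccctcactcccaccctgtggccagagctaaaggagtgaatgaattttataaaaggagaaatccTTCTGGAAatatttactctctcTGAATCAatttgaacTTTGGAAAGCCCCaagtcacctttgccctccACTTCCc
The ETS letters were in all 3 windows, at -209 in Ccl3, -48 in Ccl6 and -7 in Ccl9, counted back from the RefSeq start. For Ccl3 that start is not the GENCODE start given above: its window begins at 83649379, and the GENCODE gene starts at 83649355. The windows of Ccl6 and Ccl9 adjoin their GENCODE starts. Ccl3 held 1 C/EBP match at -100. Ccl9 held C/EBP matches at -75 and -38, an AP-1 match at -53 and an NF-kB match at -35, which overlaps the second C/EBP match. Among 32851 mouse promoters, the 250 bases before the start held the NF-kB letters in 45.8%, the C/EBP letters in 36.8%, the ETS letters in 19.7% and the AP-1 letters in 6.75%. These matches describe the letters in each window and nothing about binding in these cells.

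Ccl3 was the CC ligand with the most UMIs in tumor neutrophils and was close to absent in blood neutrophils. It stood at 6330, 6739 and 8848 CPM in tumor mice 1, 2 and 3 (4078 UMIs) and at 0, 5.26 and 3.03 CPM in blood mice 1, 2 and 3 (3 UMIs). Every tumor mouse lay far above every blood mouse, at 7306 ± 1351 against 2.76 ± 2.64 CPM (SD, n = 3 mice each). The ratio of the summed levels was 2722, with an exact 95% interval of 931 to 13204 that covers counting error only. The log2 fold change was 11.24 (SE 0.30, edgeR's quasi-likelihood test, Benjamini-Hochberg adjusted p = 8.46e-15 over 3674 genes). The contrast is broad in these libraries: 60% of those genes passed the same test, 30.2% higher and 29.8% lower in tumor, with a median log2 fold change of -0.04, and in 63.0% the tumor mice lay wholly above or below the blood mice. A call by itself is therefore no result about the ligands, and the values are what the comparison gives.

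Ccl4, which lies next to Ccl3, had a like pattern over the tissues. It stood at 3923, 5006 and 4210 CPM in the tumor mice (2698 UMIs) and at 2.29, 5.26 and 3.03 CPM in the blood mice (4 UMIs). The groups did not overlap, with means of 4380 ± 561 and 3.53 ± 1.55 CPM (SD, n = 3 mice each) and a ratio of 1351 (exact 95% interval 527 to 4961, counting error only). The log2 fold change was 10.16 (SE 0.26, edgeR adjusted p = 5.75e-15). Within the tumor the mice differed in the balance of the pair: Ccl3 held 1.61, 1.35 and 2.10 UMIs for each UMI of Ccl4 in mice 1, 2 and 3 (1.69 ± 0.383). UMIs mark single molecules at one end, so gene length does not enter this ratio, but capture may differ between genes.

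Ccl2, the monocyte attractant, was a trace signal of a few cells. Its 34 UMIs all fell in tumor mouse 2, at 88.2 CPM, with 0 in tumor mice 1 and 3, and the blood table does not list the gene. The 34 UMIs came from 10 of 564 cells, and 3 cells with 9, 8 and 7 UMIs held 70.6% of them. Set against the limit of 3 counts over the summed blood cells, the summed tumor level was 22.7 times as high. The exact 95% interval of the ratio to the blood count of 0 started lower, at 17.5 (counting error only). The gene was too sparse for that filter. Fitted without it (16032 genes, 16.4% called, 7.69% higher in tumor) Ccl2 had a log2 fold change of 6.76 with an adjusted p of 9.28e-10 in edgeR. DESeq2 gave 5.83 with an adjusted p of 0.296. The edgeR p-values of the fit without the filter are not read as a measure of the spread between mice. In that fit Ccl3 had an edgeR adjusted p of 2.62e-211, against 8.46e-15 with the filter. With HTODemux calls, tumor mouse 1 held 23.7 CPM and mouse 2 110 CPM. An exact two-sided permutation test of the 3 against 3 values gave p = 1, and without tumor mouse 2 no value is left. Of the UMIs, 9 lay in the 36 tumor cells that carried monocyte or macrophage markers (at least 3 UMIs from at least 2 marker genes). Those cells held 207 CPM of Ccl2 (exact 95% interval 94.5 to 393), from 2 of them. The other 805 tumor cells held 47.2 CPM (30.6 to 69.7), from 8 cells. These intervals treat UMIs of the same cell as independent, so no difference is read from them.

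Ccl6, a Ccr1 ligand of resting myeloid cells, went the other way. It stood at 779, 669 and 650 CPM in the tumor mice (389 UMIs) and at 1525, 1413 and 1384 CPM in the blood mice (1660 UMIs). Every tumor mouse was below every blood mouse, at 700 ± 69.4 against 1441 ± 74.6 CPM (SD, n = 3 mice each). The level was 2.13 times as high in blood (exact 95% interval 1.91 to 2.39). The log2 fold change was -1.03 (SE 0.13, 95% interval -1.31 to -0.76, edgeR adjusted p = 3.23e-06). Ccl6 was thus lower in the tumor but still measured there in every mouse, whereas Ccl3 and Ccl4 in blood were at the limit of counting.

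Ccl9, the second ligand assigned to the resting group, did not behave as that label says. It was a trace message in both tissues, at 14.2, 36.3 and 25.7 CPM in the tumor mice (1, 14 and 3 UMIs) and 4.58, 10.5 and 6.06 CPM in the blood mice (2, 4 and 2 UMIs). The groups did not overlap (25.4 ± 11.1 against 7.05 ± 3.10 CPM, SD, n = 3 mice each), as in 24.3% of genes without the low-count filter, and the ratio was 4.51 (exact 95% interval 1.86 to 12). Its log2 fold change of 1.86 (SE 0.69, fit without the filter, edgeR adjusted p = 0.0446) was higher in tumor, opposite in sign to Ccl6. This call rests on 18 and 8 UMIs and was lost in 11 of 17 alternative fits, among them DESeq2 (adjusted p = 0.173), the fit without tumor mouse 2 (1.14, adjusted p = 0.597), without blood mouse 1 (1.63, 0.172) or without blood mouse 3 (1.81, 0.0999). Without the cells that carried monocyte or macrophage markers it was 1.81 (adjusted p = 0.115). These 36 tumor cells held 138 CPM of Ccl9 (exact 95% interval 50.6 to 300), from 5 of them, against 22.7 CPM (11.7 to 39.6) in the others, from 8 cells. Here too the intervals treat UMIs of the same cell as independent, so no difference is read from them.

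**Figure D1:**
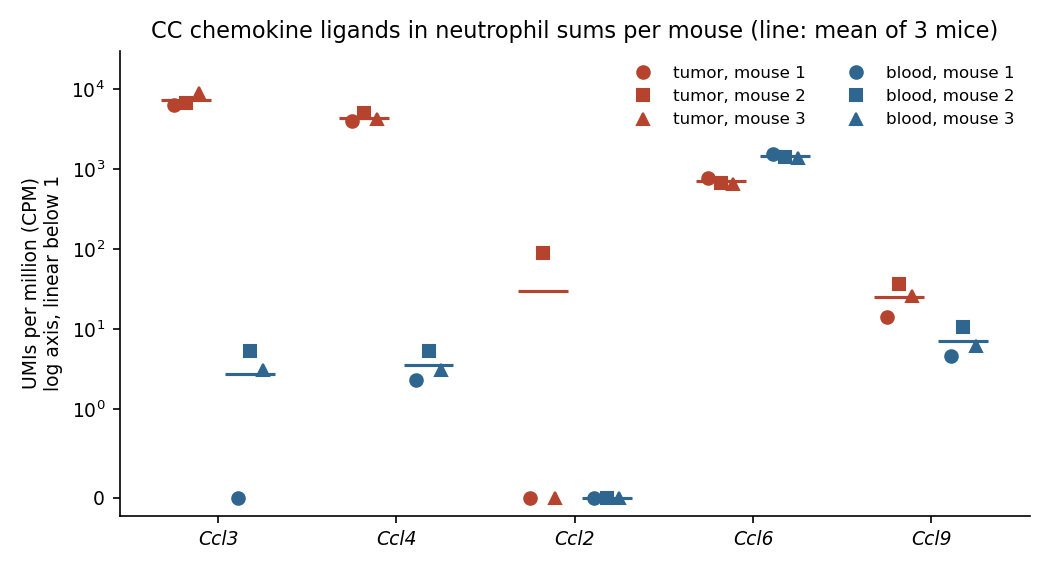
CPM of the 5 ligands (y axis, logarithmic above 1 and linear below) in the summed cells of each mouse in tumor (red) and blood (blue), with a line at the mean of 3 mice. Ccl3 and Ccl4 lie at or above 3923 CPM in every tumor mouse and below 6 in every blood mouse, Ccl6 is about 2.13 times as high in blood, and Ccl2 is above 0 in tumor mouse 2 alone.

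Taking the CC ligands as a family, tumor neutrophils held more of their message and a different ligand led it. All CC ligands summed to 11046, 12609 and 13743 CPM in the tumor mice and to 1546, 1542 and 1399 CPM in the blood mice. In tumor, Ccl3 made up 58.4% ± 5.55 of the CC ligand UMIs, Ccl4 35.3% ± 4.54, Ccl6 5.70% ± 1.21 and Ccl9 0.201% ± 0.0809 (SD, n = 3 mice). In blood, Ccl6 alone made up 98.7%, 91.6% and 98.9% in mice 1, 2 and 3 (96.4% ± 4.13), with Ccl3 at 0.186% ± 0.173, Ccl4 at 0.235% ± 0.0979 and Ccl9 at 0.471% ± 0.196. The share of Ccl9 was higher in blood, opposite to its CPM. The lower share in blood mouse 2 came with 7.0% of other CC ligands, all of it Ccl5. For Ccl3, Ccl4, Ccl6 and Ccl9 the exact two-sided permutation p was 0.1 (0.125 adjusted over the 5 ligands), the smallest that 3 against 3 mice allow, and for Ccl2 it was 1.

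**Figure D2:**
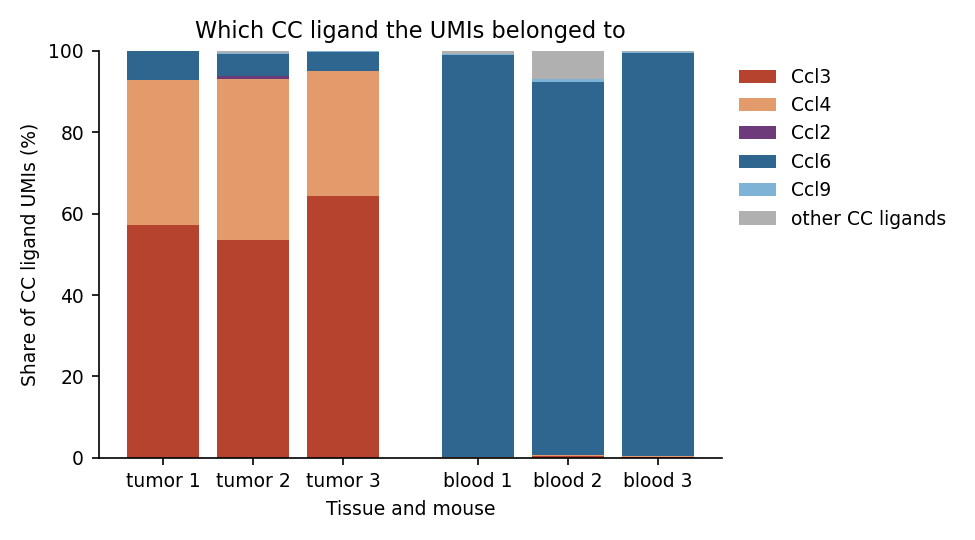
Share of all CC ligand UMIs (y axis, percent) held by each ligand in the 3 tumor and 3 blood sums. Ccl3 and Ccl4 fill over 90% of each tumor bar, and Ccl6 fills 91.6% to 98.9% of each blood bar.

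The balance of the induced pair against the resting pair, (Ccl3 + Ccl4) over (Ccl6 + Ccl9) in UMIs, does not depend on scaling between sums. On the log2 scale with 0.5 added to each side it was 3.68, 4.05 and 4.26 in the tumor mice and -8.80, -6.91 and -7.52 in the blood mice. The means of 4.0 ± 0.30 and -7.74 ± 0.96 differed by 11.74, with every tumor mouse above every blood mouse (exact two-sided permutation p = 0.1, the smallest possible here). Leaving out 1 mouse of a tissue at a time gave differences of 11.2 to 12.2. In the resting pair the value is that of Ccl6 for practical purposes, since Ccl9 added 18 UMIs to the 389 of Ccl6 in tumor and 8 to the 1660 in blood.

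Counted over cells instead of molecules, the same order held. To compare cells at equal depth, the expected share with a UMI was computed at 441 UMIs per cell, which left out 209 tumor and 254 blood cells below that depth. At that depth 73.1%, 61.4% and 65.5% of the cells of tumor mice 1, 2 and 3 held a Ccl3 UMI (66.7% ± 5.91) and 0.123% ± 0.213 of blood cells did. For Ccl4 the shares were 47.3%, 44.5% and 39.1% in tumor (43.6% ± 4.20) and 0.0943% ± 0.0818 in blood. For Ccl6 they were 21.5%, 18.2% and 15.6% in tumor (18.5% ± 2.93) and 41.5%, 39.2% and 38.9% in blood (39.9% ± 1.43). Ccl9 was found in 1.09% ± 0.296 and 0.301% ± 0.133 of cells, and Ccl2 in 1.65% of the cells of tumor mouse 2. The exact two-sided permutation p was 0.1 for each ligand except Ccl2 (p = 1), adjusted 0.125 over 5 ligands. Without thinning, 71.9% ± 5.64 of tumor cells held Ccl3, 45.5% ± 6.09 Ccl4 and 21.3% ± 2.44 Ccl6, against 49.2% ± 1.03 of blood cells for Ccl6.

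A UMI does not show that a cell made the message, because tumor barcodes with too few UMIs to be taken as a cell held it too. Barcodes of 20 to 60 UMIs (5945 in tumor, median 46 UMIs), used here as a measure of RNA outside intact cells, carried Ccl3 at 2373 CPM and Ccl4 at 1351 CPM. Cells exceeded them 3.00-fold for Ccl3 (exact 95% interval 2.76 to 3.27), 3.49-fold for Ccl4 (3.12 to 3.90) and 3.31-fold for Ccl6 (2.49 to 4.47), but for Ccl9 (1.40, 0.534 to 4.32) and Ccl2 (2.27, 0.992 to 6.07) the interval included 1. If all RNA of a tumor cell were of that kind, 64.9% of cells at 441 UMIs would hold a Ccl3 UMI and 44.9% a Ccl4 UMI. The measured 66.7% and 43.6% are at that level, so these shares are not read as shares of cells that express the genes. For Ccl6 the corresponding level was 8.65% in tumor and 13.8% in blood, below the measured 18.5% and 39.9%. In blood the 20 to 60 UMI barcodes held 0 UMIs of Ccl3 and 1 of Ccl4.

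**Figure D3:**
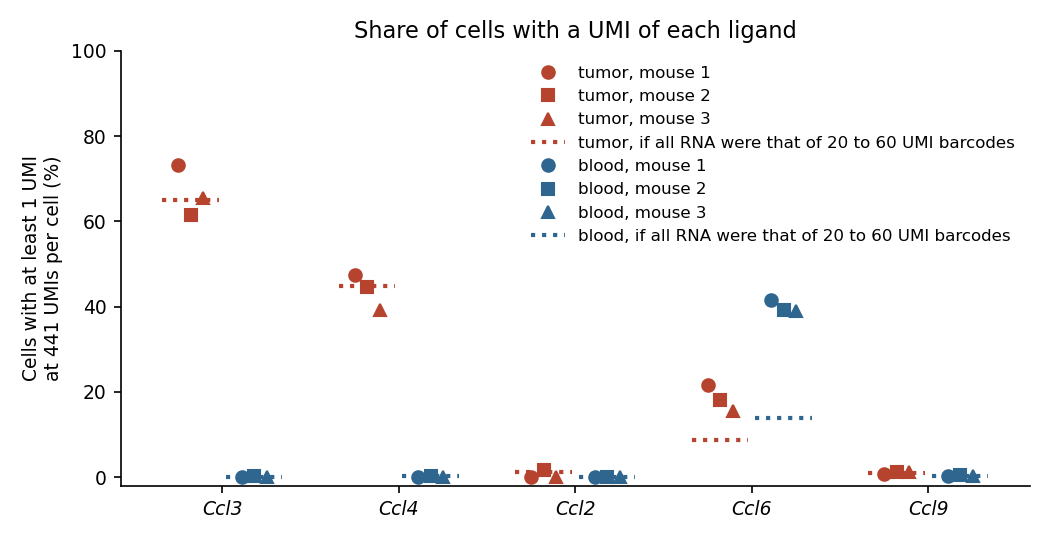
Percent of cells (y axis) expected to hold at least 1 UMI of each ligand at 441 UMIs per cell, by mouse, in tumor (red) and blood (blue), with dotted lines at the share that RNA like that of 20 to 60 UMI barcodes would give. The tumor points of Ccl3 and Ccl4 sit around the dotted line, and those of Ccl6 lie above it in both tissues.

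What exceeded that background in the tumor was the number of molecules in a part of the cells. With RNA like that of the low barcodes, 3.45 tumor cells would be expected to hold 10 or more Ccl3 UMIs, and 139 did. For Ccl4 the numbers were 0.359 and 93. The 84 tumor cells with the most Ccl3 held 48.7% of its UMIs and the 84 with the most Ccl4 held 61.9% of its UMIs, with up to 69 Ccl3 and 56 Ccl4 UMIs in a cell. At equal depth the variance of Ccl3 over cells was 8.48 times its mean and that of Ccl4 8.76 times, ranks 11 and 9 among 254 genes with a median of 1.51. For Ccl6 this ratio was 2.50 in tumor (rank 46 of 254) and 1.71 in blood (rank 25 of 201, median 1.19), but the ratio depends on the mean, which was 0.303 UMIs per cell for Ccl6 against 3.37 for Ccl3 and 2.31 for Ccl4 in tumor. No order of evenness was read from it. The 84 tumor cells with the most Ccl6 held 75.8% of its UMIs. In blood 677 of 1375 cells held Ccl6, with 2.45 UMIs per cell that had any and at most 13.

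Sorted by the sum of Ccl3 and Ccl4, 186 tumor cells (22.1%) held 0 UMIs, 305 (36.3%) held 1 to 4, 116 (13.8%) held 5 to 9 and 234 (27.8%) held 10 or more. The classes were cut on raw UMIs and not at equal depth. Median depth rose along them, at 498.5, 565, 604.5 and 652 UMIs per cell. The last class took up 26.4%, 27.5% and 29.8% of the cells of mice 1, 2 and 3 and held 78.6% of all Ccl3 and Ccl4 UMIs. Ccl6 was present along the whole range: it stood at 786 ± 113 CPM in the class of 10 or more, 662 ± 110 in that of 5 to 9, 809 ± 210 in that of 1 to 4 and 365 ± 200 in the class of 0 (SD, n = 3 mice). In each mouse the class of 0 had the lowest Ccl6 (266, 596 and 234 CPM). Its intervals were wide, since mice 1 and 3 held 2 and 6 Ccl6 UMIs there. Cells with many Ccl3 and Ccl4 molecules thus still carried Ccl6 in these sums. Markers of other kinds moved along the same range: the neutrophil list summed to 127540 CPM in the class of 0 and to 90725, 67984 and 48934 CPM in the classes above, with the class of 0 highest and the class of 10 or more lowest in each mouse, though in mouse 3 the classes between stood at 68600 and 95680 CPM. The monocyte and macrophage list summed to 9668, 5090, 586 and 1012 CPM, with 17, 14, 2 and 3 cells carrying such markers. By mouse it was 399, 526, 429 and 446 CPM in mouse 1, 11766, 4530, 642 and 1338 CPM in mouse 2 and 4838, 9583, 580 and 280 CPM in mouse 3, so that mouse 1 showed no such gradient. Their part in the Ccl6 values was not tested.

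**Figure D4:**
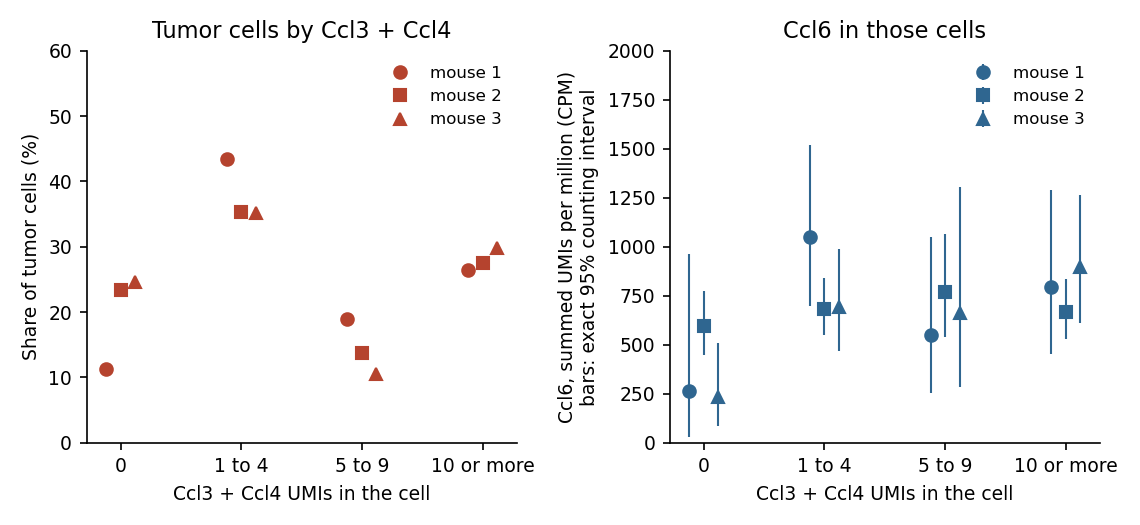
Left, percent of the tumor cells of each mouse by their summed Ccl3 and Ccl4 UMIs. Right, Ccl6 in CPM in the same cells with exact 95% counting intervals, where each mouse has its lowest value among cells with 0 Ccl3 and Ccl4 UMIs and between 552 and 1051 CPM in the other classes.

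Joint detection is given as counts of cells with a UMI, with the limits that background RNA and depth set on such counts: a cell with 0 UMIs of a gene at this depth may still hold its message. Ccl3 and Ccl4 were both detected in 305 tumor cells, against 265 expected from their shares within each mouse and quartile of depth (1.15 times). Ccl3 without Ccl4 was seen in 279 cells, Ccl4 without Ccl3 in 71 and neither in 186. Ccl3 and Ccl6 met in 119 cells (128 expected, 0.927 times) and Ccl4 and Ccl6 in 90 (86.5 expected, 1.04 times). Across the cells of a mouse, the genes most like Ccl3 among 757 were Cxcl2, a neutrophil-attracting CXC chemokine (mean Pearson r over 3 mice 0.42), Hilpda (0.28), Ccl4 (0.27), Il1rn, the interleukin-1 receptor antagonist (0.26), and Ccrl2 (0.26). For Ccl4 they were Ccl3 (0.27), Cxcl2 (0.26), Hcar2 (0.22), Il1rn (0.20) and Ctsb (0.18). The r of Ccl3 with Ccl4 was 0.08, 0.32 and 0.40 in mice 1, 2 and 3. For Ccl6 they were Wfdc17 (0.27), Ifitm1, Ifitm2, Wfdc21 and Mcemp1 (0.23 each), and its r with Ccl3 was -0.06. In blood, Ccl6 was again most like Wfdc17 (0.29 among 913 genes), then Retnlg (0.23), S100a8 and S100a9 (0.20 each) and S100a6 (0.17), all abundant neutrophil messages apart from the last, which many cell types make. Such r values are weak and share library and depth, and they are given as a description.

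The level of the induced pair also varied with the number of genes detected in a tumor cell. Ccl3 stood at 9516 ± 2584 CPM in cells with at least 200 and under 300 genes, 7285 ± 1876 in those with 300 to under 500 and 3254 ± 2149 in the 80 cells with 500 or more (SD, n = 3 mice). Ccl4 followed at 6261 ± 1076, 3993 ± 1467 and 1898 ± 558 CPM. By mouse, the Ccl3 level went from 8132 to 5230 and 5347 CPM in mouse 1 and from 7919 to 7718 and 3362 CPM in mouse 2. In mouse 3 it went from 12497 to 8906 and 1054 CPM, the last from 11 cells. Mouse 1 thus showed no fall over the last step, where it had 9 cells. Ccl6 showed no such order in tumor, at 537 ± 155, 870 ± 210 and 560 ± 253 CPM, and in blood it was 1571 ± 382, 1665 ± 87.5 and 1088 ± 40.9 CPM. In cells with at least 500 genes Ccl3 had 0 UMIs and Ccl4 3 UMIs in blood, and the log2 fold change of Ccl4 was 7.64 (edgeR adjusted p = 9.79e-09) in place of 10.16.

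Summed over the mice, tumor cells with monocyte or macrophage markers held less Ccl3 and Ccl4 than the other tumor cells. Most of them came from mouse 2: without them tumor mice 1, 2 and 3 held 105, 534 and 166 cells in place of 106, 564 and 171. The comparison is therefore largely one within mouse 2. The cells with such markers also had more UMIs per cell (median 896.5 against 567), and the part of depth in this difference was not tested. The 36 such tumor cells held Ccl3 at 2228 CPM (exact 95% interval 1807 to 2719) and Ccl4 at 1218 CPM (912 to 1593), close to the 2373 and 1351 CPM of the 20 to 60 UMI barcodes. These intervals treat UMIs of the same cell as independent and do not cover the spread between cells or mice. Without cells with such markers Ccl3 stood at 6374, 7169 and 9397 CPM in the tumor mice and Ccl4 at 3968, 5345 and 4532 CPM. The log2 fold changes were then 11.34 for Ccl3, 10.26 for Ccl4 and -0.96 for Ccl6 (edgeR adjusted p = 1.28e-15, 1.01e-15 and 6.14e-06).

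The receptors and the remaining CC ligands gave a small set of measured genes. Of 15 receptors and decoys, 10 are listed in the tables and 2 passed the filter, both higher in tumor, as 30.2% of all genes were. Without the filter 3 of 7 were higher and 4 not called, against 7.69% higher among all genes. Ccrl2, an atypical receptor that binds chemerin, stood at 11174, 8729 and 10962 CPM in the tumor mice and 32.1, 31.6 and 21.2 CPM in the blood mice (log2 fold change 8.47, SE 0.18, edgeR adjusted p = 4.4e-16). Ccr1, the receptor of Ccl3, Ccl6 and Ccl9, was already abundant in blood and differed far less: 1728, 1829 and 1720 CPM in tumor against 847, 1126 and 1087 CPM in blood (0.82, SE 0.13, adjusted p = 5.5e-05). Ccr2, the Ccl2 receptor, held 22 and 17 UMIs and did not pass (1.06, fit without the filter, adjusted p = 0.222). None of the other CC ligands passed the filter, and without it 6 of 19 could be tested, of which 2 were higher and 1 lower in tumor (7.69% and 8.71% of all genes so tested). Ccl7 (16 UMIs) was found in tumor mouse 2 alone, as Ccl2 was, and Ccl8 (7 UMIs) in tumor mice 2 and 3, with 0 in blood. Ccl5, a chemokine of T and NK cells, held 0 UMIs in tumor and 4, 41 and 0 in blood mice 1, 2 and 3. The T or NK markers were also highest in blood mouse 2 (260 CPM), and the part of such cells in the Ccl5 count was not tested.

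A list of genes around sensing and NF-kB, which also holds inhibitors, a decoy receptor and output cytokines, was mostly higher in tumor among filtered genes. Of 31, 28 passed the filter, of which 19 were higher, 3 lower and 6 not called (30.2% and 29.8% of all genes tested were higher and lower), with a median log2 fold change of 1.64 against -0.04 for all genes tested. The genes called higher include the inhibitors Nfkbia, Nfkbib, Nfkbie and Tnfaip3 and the cytokines Tnf and Il1b. The 6 not called were Tlr4, Tlr13, Irak1, Ikbkb, Nfkb1 and Bcl3, so the counts do not describe the signal chain alone. Without the filter 16 of 31 were higher and 3 lower (7.69% and 8.71% of all genes), with a median of 0.87 against -0.15. Nfkbia, the NF-kB inhibitor that is itself an NF-kB target, stood at 10623 ± 1573 CPM in tumor against 364 ± 35.2 in blood (log2 fold change 4.88). Cd14, the lipopolysaccharide co-receptor, stood at 12076 ± 1152 and 355 ± 73.5 CPM (5.10), and Il1r2, the decoy interleukin-1 receptor, at 3030 ± 371 and 80.1 ± 19.2 CPM (5.26). The edgeR adjusted p was 1.24e-14, 2.23e-14 and 2.27e-13. In the other direction, Myd88, the adaptor of most Toll-like receptors, stood at 60.4 ± 39.2 and 367 ± 8.42 CPM (-2.29), its kinase Irak4 at 21.2 ± 21.4 and 128 ± 24.6 CPM (-2.44), and the TNF receptor Tnfrsf1a at 152 ± 29.0 and 282 ± 90.1 CPM (-0.72), with adjusted p of 1.54e-06, 6.36e-05 and 0.0184 in edgeR.

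Of 21 AP-1, C/EBP and early response factors, 15 passed the filter, and 10 were higher and 2 lower in tumor, against 30.2% and 29.8% of all genes (median log2 fold change 1.80 against -0.04). The 3 not called were Fos (0.47), Fosl2 (0.48) and Irf1 (-0.1), with edgeR adjusted p of 0.143, 0.105 and 0.691. The other Fos and Jun genes that passed the filter were higher to unlike degrees: Fosb 6.02, Jun 2.50, Junb 0.54 and Jund 0.47. Without the filter 10 of 21 were higher and 3 lower, against 7.69% and 8.71%. Cebpb stood at 2055 ± 358 CPM in tumor against 90.9 ± 16.7 in blood (4.47), while its relative Cebpd went the other way, at 129 ± 50.6 and 641 ± 47.3 CPM (-2.56). The early genes Egr1 (774 ± 157 against 4.29 ± 1.15 CPM, 7.35) and Nr4a1 (519 ± 16.8 against 11.9 ± 3.67 CPM, 5.38) were higher in tumor. Spi1, the myeloid factor PU.1, was lower, at 494 ± 62.3 against 1322 ± 39.5 CPM (-1.41). The edgeR adjusted p of Cebpb, Cebpd, Egr1, Nr4a1 and Spi1 lay between 1.04e-12 and 1.64e-07. Egr1 and Nr4a1 are also known to respond when tissue is digested, and digestion was used for the tumor alone, so that the tissue and its digestion cannot be told apart.

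Of 14 genes of message decay and stability, 11 passed the filter, of which 8 were higher and 1 was lower in tumor, against 30.2% and 29.8% of all genes (median log2 fold change 1.14 against -0.04). Without the filter 6 of 14 were higher, 1 was lower and 7 were not called, against 7.69% and 8.71% of all genes (median 0.75 against -0.15). Zfp36, which binds AU-rich elements of chemokine and cytokine messages and speeds their decay, stood at 1022 ± 128 CPM in tumor against 368 ± 39.1 in blood (1.47). Mapkapk2, the kinase that restrains Zfp36, stood at 293 ± 55.9 and 25 ± 4.41 CPM (3.45), and the phosphatase Dusp2 at 111 ± 22.2 and 2.65 ± 0.369 CPM (5.24). Mapk14, the p38 kinase that activates Mapkapk2, was lower in tumor, at 12.3 ± 19.1 and 99.3 ± 11 CPM (-3.37). The edgeR adjusted p was 8.56e-08, 4.47e-09, 6.02e-08 and 5.94e-05 in that order. Of 13 genes of chemokine storage and processing, 5 passed the filter, and 1 was higher and 2 were lower in tumor. Among all genes 30.2% were higher and 29.8% lower (median log2 fold change 0.10 against -0.04). Without the filter 3 of 10 were higher and 2 lower, against 7.69% and 8.71% of all genes (median -0.08 against -0.15). Serglycin (Srgn), a granule proteoglycan, was higher in tumor (16345 ± 749 against 4524 ± 308 CPM, 1.87, adjusted p = 5.34e-11 in edgeR). The metalloproteinases Mmp8 (244 ± 47.9 against 905 ± 79.8 CPM, -1.91) and Mmp9 (138 ± 17.5 against 638 ± 132 CPM, -2.09) were lower (edgeR adjusted p = 2.18e-08 and 1.92e-07).

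The difference between the tissues was not shared along the chromosome. Within 100 kb of the stretch from Ccl9 to Ccl4, the genes with at least 20 UMIs besides the ligands were Taf15, Ccl5, Wfdc17, Wfdc18, Wfdc21 and Heatr6. The whey acidic protein genes Wfdc17 and Wfdc21, which lie beyond Ccl4 and were among the genes most like Ccl6 across tumor cells, were lower in tumor as Ccl6 was. Wfdc17 stood at 4173 ± 504 CPM in tumor against 12786 ± 938 in blood (log2 fold change -1.58, SE 0.12, edgeR adjusted p = 4.18e-09). Wfdc21 stood at 1255 ± 270 and 4965 ± 579 CPM (-1.92, SE 0.16, edgeR adjusted p = 1.51e-08). Wfdc18 was lower in tumor too, on 7 and 67 UMIs (-2.19, edgeR adjusted p = 0.00124), and Taf15 was higher, on 28 and 27 UMIs (1.08, adjusted p = 0.02). Heatr6, on 3 and 28 UMIs and from the edgeR fit without the filter, gave -2.26 (adjusted p = 0.0348). In the same fit, and beyond Ccl6, Ccl9 gave 1.86. Ccl5 gave -6.57 there, on 0 UMIs in tumor and 45 in blood, of which 41 were in blood mouse 2. Ccl3 and Ccl4, higher in tumor by over 10 on the log2 scale, thus lay between Ccl6 on one side and the Wfdc genes on the other, which were all lower.

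**Figure D5:**
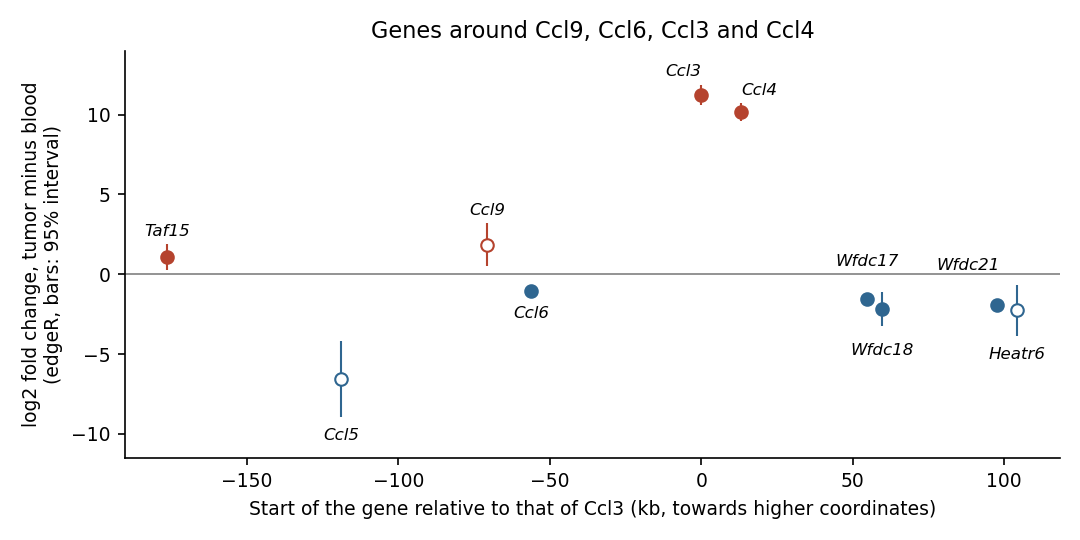
Log2 fold change between tumor and blood (y axis, edgeR, with 95% intervals) of the genes with at least 20 UMIs around Ccl9, Ccl6, Ccl3 and Ccl4, by the distance of their start from that of Ccl3 in kb. Open points are from the fit without the low-count filter. Ccl3 and Ccl4 stand at 11.24 and 10.16 between Ccl6 at -1.03 and the 3 Wfdc genes at -1.58 to -2.19.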

How the data were processed

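The authors deposited raw UMI counts per gene and barcode and raw hashtag counts per barcode for 1 RNA and 1 hashtag library per tissue (10000 barcodes per RNA table). STAR and mm10 are named, without versions, in the submitters' processing notes, and the gene counter, its annotation, its use of strand and any doublet filter remain not given in the sources used here. A gene listed in 1 table was given 0 counts in the other. Barcodes with no hashtag at 70% were left out, which does not remove every doublet: HTODemux called 10, 56 and 12 of the assigned cells of tumor mice 1, 2 and 3 and 28, 52 and 21 of those of the blood mice doublets, and they were dropped in that alternative alone. Doublets within a mouse are not seen by hashtags. UMIs were summed per mouse and tissue (70612 to 385370 in tumor, 330296 to 436713 in blood) and compared with edgeR 4.0.16 (R 4.3.3) on 3 against 3 sums, with its low-count filter, TMM scaling, tissue as the only term and a threshold of 0.05 on the adjusted p. Ccl2, Ccl9 and others that the filter drops were taken from a fit without it. The p-values and calls of that fit, also those counted over lists, may understate the spread between mice. CPM is UMIs scaled to 1000000 per sum. Alternatives used DESeq2 1.42.0, HTODemux of Seurat 5.3.0, other filters and scalings. On simulated counts (3497 genes) edgeR called 50.6% of genes changed 2-fold in the tumor and blood design, 95.3% of those changed 4-fold and 0.271% of unchanged ones. There only 87 genes were changed 2-fold and 86 4-fold, with a common dispersion for all genes. In the data 60% of genes were called, so these rates may not hold for this contrast. Exact intervals and the limit of 3 counts cover counting error only. Blood and tumor came from the same 3 mice, but no source says which hashtag marks which mouse in both, so tissues were not paired. The 5 ligands and the gene lists were chosen with earlier results of these data known. Named from each list are the members past the threshold with the 3 smallest adjusted p in each direction, plus CC ligands and receptors with at least 20 UMIs. Ccl7, Ccl8, further genes of the NF-kB list and Fos, Fosl2, Irf1, Fosb, Jun, Junb and Jund fall outside that rule. They were named after their values were seen. Genes within 100 kb of the ligands with at least 20 UMIs and the 5 genes most like Ccl3, Ccl4 and Ccl6 (Pearson r of log values in tumor cells, genes with a UMI in at least 10% of cells) were also named. Il1r2, Mmp8 and Mmp9 are also in the neutrophil marker list, and Ccr2 is also in that of monocytes and macrophages.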

Additional observations from a re-analysis of the deposited data

Results flagged for a closer look

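Barcodes outside the comparison also held the induced pair in tumor, above their level in the same kind of blood barcode. In the 106 tumor cells in which no hashtag reached 70%, Ccl3 stood at 7622 CPM and Ccl4 at 4433 CPM, against 8.02 and 0 CPM in the 159 such blood cells. In tumor barcodes of 100 to under 200 genes (785 barcodes, median 235 UMIs), Ccl3 stood at 8161 CPM and Ccl4 at 5756 CPM, against 15.4 CPM each in blood. In tumor barcodes of 20 to 60 UMIs, Ccl3 stood at 2373 CPM and Ccl4 at 1351 CPM, against 0 and 4.05 CPM in blood.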

How the results depend on the processing

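Of 123 alternative fits and counts of genes, 107 kept direction and side of the threshold (or, for counts, stayed within 1.5 times), among them the 54 of Ccl3, Ccl4 and Ccl6. The other 166 alternatives used exact permutation of 3 against 3 mice or fewer, which cannot pass 0.05, and say nothing of stability beyond direction. The direction turned in 0 of 289. Of 1111 genes higher and 1094 lower in tumor, cells with at least 500 genes gave 330 and 310, and cells with at most 5% mitochondrial counts 739 and 675, with fewer cells in the sums. Scaling did not turn a ligand. In edgeR the median over genes tested was -0.04 with TMM, -0.12 with RLE (another scaling method) and -0.08 with library totals. It was -0.29 over the same genes with TMM fitted without the filter. For Ccl2, DESeq2 gave 5.83 (adjusted p = 0.296), and exact permutation of CPM a difference of 29.4 (p = 1). Its values without tumor mouse 2 were not run, since no UMI is left. Ccl9 lost its call with HTODemux (1.40), with a top hashtag of at least 90% (1.36), in cells with at least 500 genes (2.34), without cells with markers of another type (1.10), without those except erythroid ones (1.81), without cells with monocyte or macrophage markers (1.81) and with DESeq2 (1.84). Exact permutation of its CPM gave a difference of 18.3 with p = 0.1, the smallest possible, and so cannot bear on the call. The cause was not tested. The exclusions that spare erythroid cells or concern macrophage markers, and the permutations, were chosen after seeing the data.

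With each sum left out in turn, the count of genes ran from 833 to 1215 higher and 849 to 1230 lower in tumor, Ccl3 from 10.53 to 11.92, Ccl4 from 9.79 to 10.40, Ccl2 from 6.61 to 7.37, Ccl6 from -1.21 to -1.0 and Ccl9 from 1.14 to 2.27 on the log2 scale.

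Same-numbered hashtags of the tissues did not deviate together (r = 0.023, 0.009 and -0.023 over 3674 genes). With the hashtag number as a replicate block, Ccl3 gave 11.22, Ccl4 10.14, Ccl2 6.08, Ccl6 -1.03 and Ccl9 1.59 (edgeR adjusted p = 0.21 for Ccl9, the 1 ligand whose call was lost). Depth limits Ccl2 and Ccl9 in both tissues and Ccl3 and Ccl4 in blood.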
